A study of Mus musculus with 8 samples.

Results

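The comparison described here is that of Ovol1/2 iDKO mouse epidermis at 52 DPI with the same tissue at 25 DPI, made within the 4 iDKO libraries of a series of 8. The libraries were chosen by their labels, which give genotype, DPI and a biological replicate number of 1 or 2, and the replicate number was used to pair them. Each of the 4 groups of the series, control and iDKO at 25 DPI and control and iDKO at 52 DPI, held 2 libraries of RNA from epidermis that had been isolated from skin with trypsin. The iDKO mice of both times carried the same Ovol1/2 genotype, so the contrast is one of time alone in its labels, and the 4 control libraries served to set the same interval beside it. iDKO and DPI are written as labelled, and neither the labels nor the series text used here name a Cre promoter, an age or a strain. The tables list 54838 genes. A filter on low counts in the iDKO libraries left 16429 to test, and results are given for the 15888 of these that are autosomal.

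Ovol1 and Ovol2 are zinc finger transcription factors that hold epithelial cells in an epithelial state and take part in keratinocyte differentiation. Skin epidermis renews itself from a basal layer of keratinocytes, which mature through spinous and granular layers into a cornified barrier, and hair follicles pass through cycles of growth, regression and rest in which the inner root sheath and the hair shaft are built only during growth. Keratinocytes under stress switch on a set of wound and inflammation genes, and mouse epidermis also houses resident T cells and Langerhans cells that respond to barrier defects.

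The 4 iDKO libraries held 9824307 to 28783756 counts. Keratinocyte keratins were abundant in each of them, with at least 6655 CPM (counts scaled by library size) of Krt14 and 1572 CPM of Krt10. The neutrophil gene Ly6g was at 0 in all 4, and the markers of endothelium summed to 3.99 to 13.3 CPM. Markers of adipocytes summed to 50.1 to 79.2 CPM, and those of dermal fibroblasts to 334 to 529 CPM. The libraries resembled each other more by replicate number than by time. The correlation of log2 CPM across genes was 0.940 and 0.943 between the 25 and the 52 DPI library of a pair. Between replicates it was 0.859 at 25 DPI and 0.922 at 52 DPI, and between libraries that differed in both it was 0.864 and 0.914. The strand of reads also split the replicates, since the second strand took 49.8% and 49.9% of strand-assigned counts in replicate 1 and 95.6% and 95.7% in replicate 2. Y-linked Ddx3y was at 60.7 and 113 CPM in the 25 DPI iDKO libraries and at 0 in both 52 DPI libraries, Xist was at 0.342 and 0.145 CPM and then at 131 and 1087, and the control libraries showed the same split. Time and sex therefore cannot be told apart in any comparison below. Ovol1 was at 148 and 204 CPM at 25 DPI and at 98.9 and 193 at 52 DPI, and Ovol2 at 44.5 and 16.6 and then at 22.2 and 9.15. Neither gene was called between the times, and whole-gene counts do not show whether the targeted part was lost.

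With the replicate number as a block, edgeR called 80 of the 15888 autosomal genes (0.504%) at an adjusted p under 0.05, 53 higher at 52 DPI (0.334%) and 27 lower (0.17%), and 810 (5.1%) had an unadjusted p under 0.05. The genes that rose included keratinocyte activation genes, leukocyte genes and genes of the growing hair follicle, and those that fell included lipid genes of the sebaceous gland. The change had the same direction in both replicate pairs for all 53 genes that rose and for 25 of the 27 that fell, and the median size was 2.65 on the log2 scale for the former and 2.99 for the latter. Single libraries carried much of this. The highest value lay in the replicate 2 library at 52 DPI for 49 of the 53 genes that rose, and in the replicate 1 library at 25 DPI for 26 of the 27 that fell, and these same libraries had the highest shares of mitochondrial counts, 2.28% and 2.79%, against 0.75% and 0.8% in the other 2.

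The number of calls depended on both the pairing and the libraries in the fit. edgeR called 0 genes without the block (258 at an unadjusted p under 0.05) and 0 with the block fitted to all 8 libraries (685 at an unadjusted p under 0.05). By contrast, on the 4 libraries with the block, DESeq2 called 71 genes (0.447%), 65 of them among the 80, and limma-voom 86 (0.541%), with 68 among the 80. With 2 libraries at each time the smallest p of an exact permutation test that ignores the pairing is 0.333. Swaps within pairs allow fewer arrangements, so their smallest p is larger still. Calls therefore come only from models that share information across genes. In the main test each gene's spread was taken wholly from the trend across genes. In fits of the 7 libraries that remain when 1 iDKO library is left out, which like the fit of all 8 take the spread from both genotypes, 0 to 4 genes were called.

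**Figure D1:**
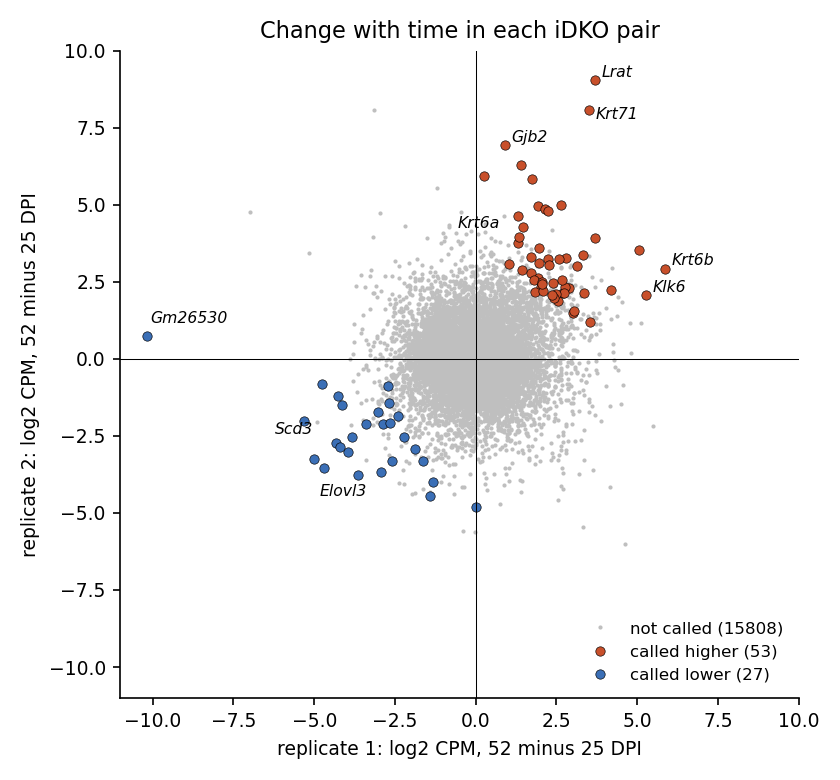
Change from 25 to 52 DPI in the replicate 1 pair (horizontal axis) and in the replicate 2 pair (vertical axis), as the difference of log2 CPM with a prior count of 2, 1 point per tested autosomal gene. The 53 genes called higher (red) lie in the upper right and 25 of the 27 called lower (blue) in the lower left, and Gm26530 fell in the replicate 1 pair only.

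The genes that rose included members of the activated keratinocyte list. Krt6a, a keratin of wounded and hyperproliferative epidermis (GRCm38 chr15:101689910-101694307), was at 28.1 and 20.5 CPM at 25 DPI and at 71.4 and 316 CPM at 52 DPI. Both 52 DPI libraries stood above both earlier ones, and the fitted change was 2.65 on the log2 scale (SE 0.62, adjusted p = 0.00821). Its neighbour Krt6b was at 0 and 0.217 CPM and then at 4.8 and 2.22 CPM (log2 fold change 4.46, SE 1.11, adjusted p = 0.0172). The Krt6 genes are near-identical copies, so the split of reads between them is uncertain. Tnc, which encodes the wound matrix protein tenascin C, was at 9.12 and 56.7 CPM and later at 67.6 and 279 CPM (log2 fold change 2.59, SE 0.57, adjusted p = 0.00489). The rise was of like size in both pairs, 2.88 and 2.30. Without the replicate 2 library at 52 DPI the log2 fold change of Krt6a was 1.54, and without the replicate 2 library at 25 DPI that of Krt6b was 9.02.

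Gjb2, a connexin of gap junctions, was at 2.51 and 2.25 CPM at 25 DPI and at 4.77 and 287 CPM at 52 DPI (log2 fold change 4.15, SE 0.80, adjusted p = 0.000277). Nearly all of that rise lay in 1 library, and without it the fitted change was 0.86. With the same block Gjb2 was called by limma-voom but not by DESeq2 (unadjusted p = 0.0472, adjusted p = 0.938). Gja1, another connexin of keratinocytes, had a log2 fold change of 1.75 and was not called (adjusted p = 0.623). Chil1, a secreted chitinase-like protein of inflamed tissue, was at 4.22 and 4.17 CPM and then at 20.3 and 40.2 CPM, which do not overlap (log2 fold change 2.78, SE 0.59, adjusted p = 0.00212), and its change was 1.63 without the replicate 2 library at 52 DPI. Below, Gjb2 is counted in the adhesion list and Chil1 in the alarmin and antimicrobial list. In the activated keratinocyte list 11 of the 15 tested members were higher at 52 DPI and 3 were called. The median log2 change of the activated keratinocyte list was 0.71, against -0.04 for all autosomal genes tested. In control epidermis the median of this list over the same interval was 1.05. For none of its members did the change over time differ between genotypes after adjustment.

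**Figure D2:**
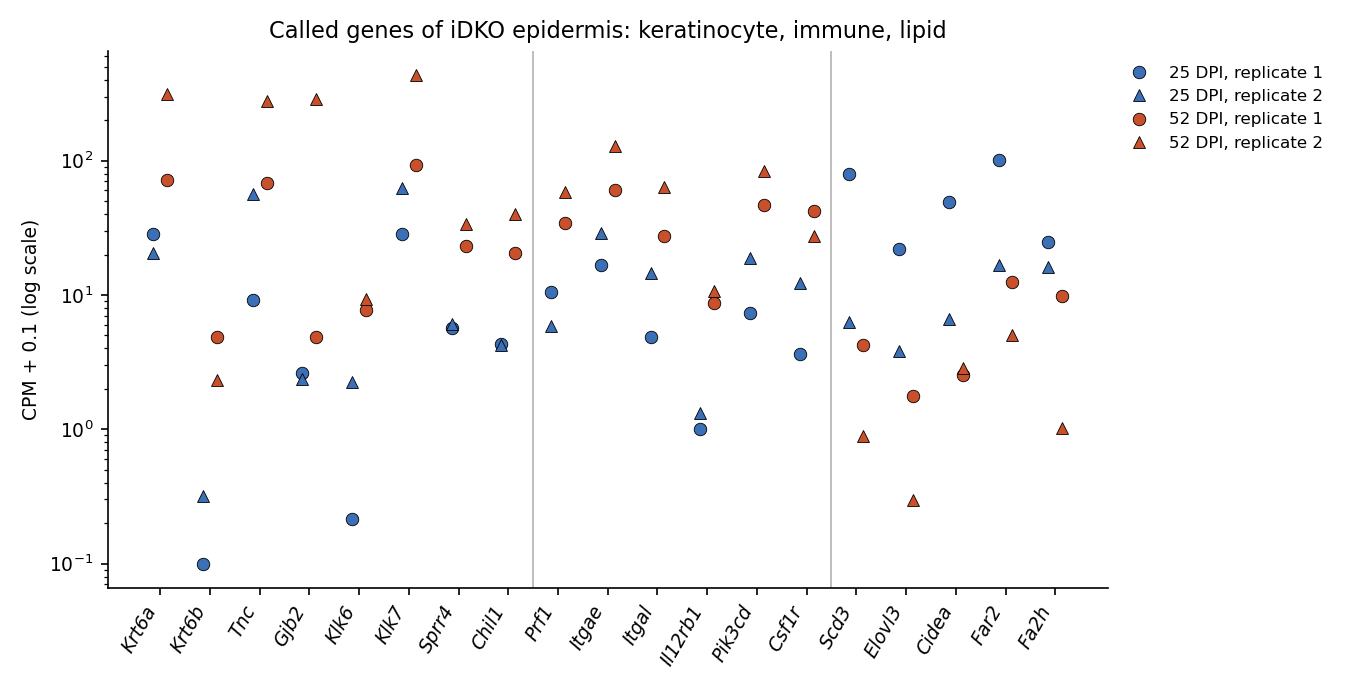
Levels of 19 called genes in the 4 iDKO libraries, as CPM plus 0.1 on a log axis, with 25 DPI in blue, 52 DPI in red, circles for replicate 1 and triangles for replicate 2. Keratinocyte genes (left) and immune genes (middle) were higher at 52 DPI in both pairs, lipid genes (right) were lower, and the highest value of Gjb2, 287 CPM, belongs to 1 library.

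Klk7 and Klk6, proteases of the outermost layer, rose as well. Klk7, a serine protease that cuts corneodesmosomes as cells are shed, was at 28.4 and 62.2 CPM at 25 DPI and at 92.6 and 433 CPM at 52 DPI (log2 fold change 2.26, SE 0.59, adjusted p = 0.0285). Klk6, a related protease next to it on chromosome 7, was at 0.114 and 2.14 CPM and then at 7.59 and 9.28 CPM (log2 fold change 3.36, SE 0.83, adjusted p = 0.0172). Spink5, which encodes their inhibitor, was at 93 and 113 CPM and later at 38.5 and 55.3 CPM. Its libraries did not overlap, but the decrease of 1.15 on the log2 scale was not called (adjusted p = 0.843). Without the replicate 2 library at 52 DPI the log2 fold change of Klk7 was 0.66, and that of Klk6 ranged from 1.49 without the replicate 1 library at 25 DPI to 7.07 without the replicate 2 library at that time. Over the 14 tested desquamation proteases and inhibitors 10 were higher and 2 were called, with a median of 0.48 that was -0.13 in the replicate 1 pair and 1.30 in the replicate 2 pair.

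The programme of differentiation itself showed few calls. Sprr4, a small proline-rich protein of the cornified envelope, was at 5.58 and 6.02 CPM and then at 23.1 and 33.9 CPM (log2 fold change 2.28, SE 0.57, adjusted p = 0.0177), and it was the 1 called gene among 23 tested members of the cornified envelope list, whose median was 0.11. Its change was 1.30 without the replicate 2 library at 52 DPI. Flg2, a filaggrin relative, was at 1.03 and 16.5 CPM and later at 0.753 and 0.261 CPM, a difference that was not called (adjusted p = 0.154). Sprr2a3, an envelope protein of another branch of the family, fell from 13.1 and 8.88 CPM to 4.83 and 0.327 CPM (log2 fold change -2.84, SE 0.76, adjusted p = 0.0381), and reads of the Sprr2a copies may be shared. The call of Sprr2a3 ended with DESeq2 (adjusted p = 0.0696) and limma-voom (adjusted p = 0.087), and its change was -1.78 without the replicate 2 library at 52 DPI. None of the 33 tested spinous and granular genes was called, 15 being higher and 18 lower with a median of -0.06, and Krt2, a late keratin, was at 5.01 and 2.72 CPM and then at 1.29 and 0.653 CPM (adjusted p = 0.696). Among 22 basal keratinocyte genes 17 were lower and none was called. Their median of -0.24 joined a pair with 0.83 and a pair with -1.28, so the pairs pointed opposite ways.

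Fa2h, which adds the hydroxyl group to fatty acids of skin ceramides, fell from 24.7 and 15.9 CPM to 9.79 and 0.915 CPM (log2 fold change -2.61, SE 0.64, adjusted p = 0.0163). It was the 1 called member of the 33 tested barrier lipid genes, 22 of which were lower, with a median of -0.15. DESeq2 (adjusted p = 0.0606) and limma-voom (adjusted p = 0.0532) did not call Fa2h, and its log2 fold change was -1.32 without the replicate 2 library at 52 DPI. Dsc1, a desmosomal cadherin of the upper layers, was at 35.1 and 104 CPM and then at 107 and 198 CPM and was not called (adjusted p = 0.695). The adhesion list, with Gjb2 as its 1 called gene, had 21 of 28 members higher and a median of 0.28.

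**Figure D3:**
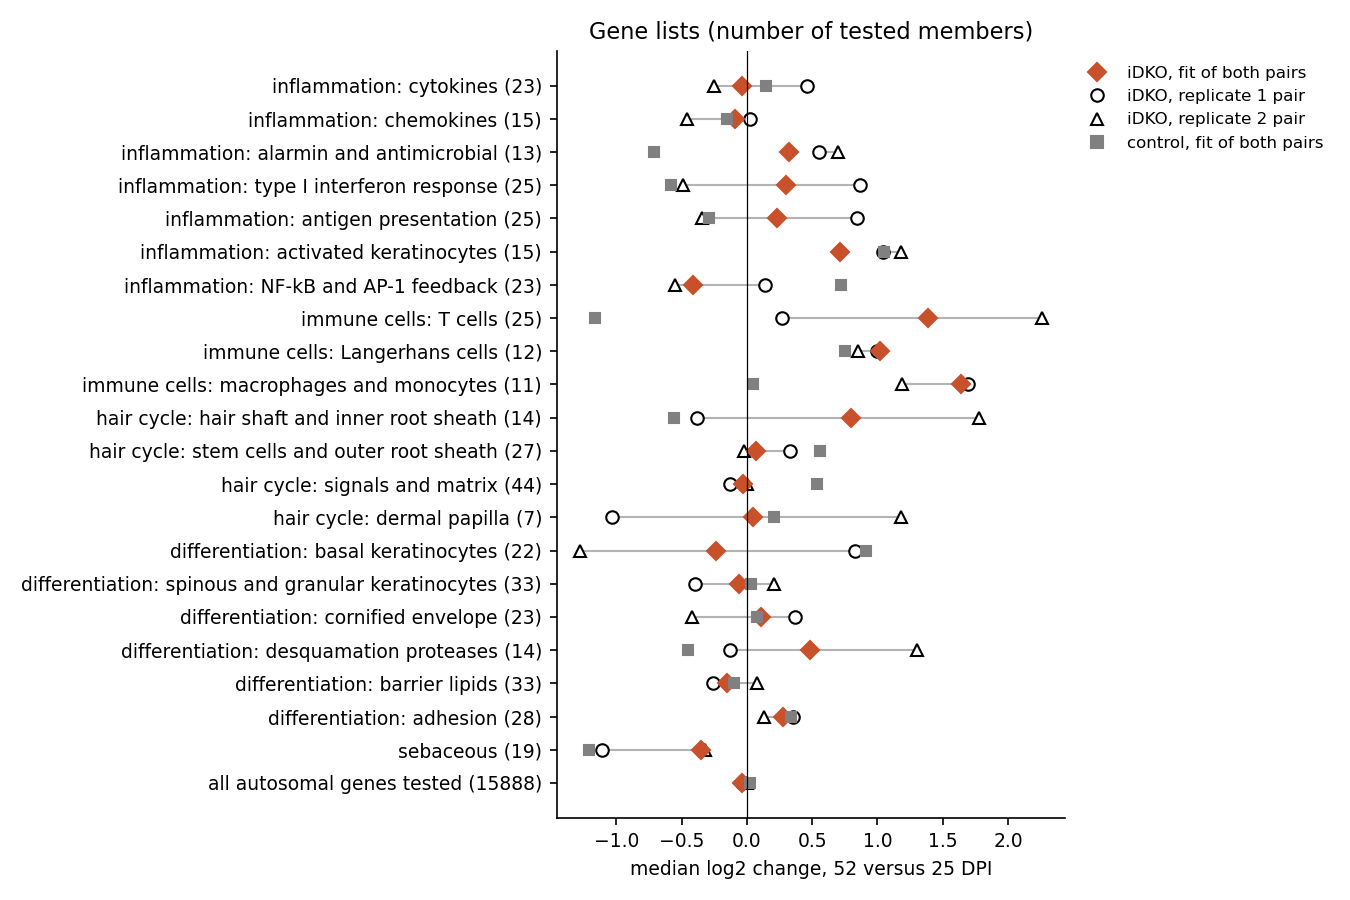
Median log2 change from 25 to 52 DPI over the tested autosomal members of each list, whose number is in parentheses. Red diamonds are the iDKO fit of both pairs, open circles and triangles the replicate 1 and replicate 2 pairs, and grey squares the control fit. T cells stand at 1.39 in iDKO and -1.16 in control (0.04 and -0.19 when the library that moves each most is left out), and the basal list spans 0.83 to -1.28 between pairs.

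Several genes known from leukocytes were among those that rose. In bulk epidermis, more cells of a type and more RNA per cell cannot be told apart. Prf1, which encodes the pore-forming protein of cytotoxic lymphocytes, was at 10.5 and 5.73 CPM at 25 DPI and at 34.5 and 58 CPM at 52 DPI (log2 fold change 2.54, SE 0.56, adjusted p = 0.00495). Itgae, the integrin chain with which epidermal T cells hold on to E-cadherin, was at 16.6 and 28.6 CPM and then at 60.1 and 128 CPM (log2 fold change 2.01, SE 0.54, adjusted p = 0.0452). For both genes the 2 libraries at 52 DPI were above both at 25 DPI, as was so for 51 of the 53 genes called higher. Itgae was near the threshold and was not called with RLE scaling (adjusted p = 0.0558), without the filter on low counts (0.0725) or with the second-strand column for replicate 2 (0.0527), and the change of Prf1 was 1.61 without the replicate 2 library at 52 DPI. Itgal, an integrin chain of circulating and resident leukocytes, was at 4.79 and 14.6 CPM and later at 27.4 and 63.4 CPM (log2 fold change 2.31, SE 0.55, adjusted p = 0.0104). Il12rb1, a shared receptor chain for cytokines that steer T cells, was at 0.912 and 1.23 CPM and then at 8.6 and 10.7 CPM (log2 fold change 3.16, SE 0.76, adjusted p = 0.0134). The libraries of each time lay close together for this gene and far from those of the other time.

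A further 6 called genes, picked for their known roles in leukocytes and not a list, were higher at 52 DPI. Pik3cd, a lipid kinase subunit of white blood cells, was at 7.18 and 18.8 CPM and then at 47 and 83.4 CPM (log2 fold change 2.42, adjusted p = 0.00635), and its fitted change lay between 2.01 and 2.87 whichever iDKO library was left out. Inpp5d, a phosphatase that acts against such kinases, had a log2 fold change of 2.23 (adjusted p = 0.0285), and Dock2, which drives leukocyte migration, one of 2.26 (adjusted p = 0.0397). Fscn1, an actin-bundling protein found in mature dendritic cells and in motile epithelial cells, was at 6.38 and 17.3 CPM and then at 43.5 and 87.9 CPM (log2 fold change 2.55, adjusted p = 0.0036). Icosl, a costimulatory ligand for T cells, was at 3.99 and 14.8 CPM and later at 16.4 and 75.5 CPM (log2 fold change 2.20, adjusted p = 0.0174). For each of these 5 genes both libraries at 52 DPI were above both at 25 DPI, as for 51 of the 53 genes called higher. The share over all autosomal genes tested was 11.8%, and choice among called genes favours this pattern. Leaving out 1 iDKO library at a time moved the log2 fold change of Inpp5d between 1.36 and 3.20, that of Dock2 between 1.22 and 3.54, that of Icosl between 1.28 and 2.91 and that of Fscn1 between 2.16 and 2.98. The lowest values were without the replicate 2 library at 52 DPI for Icosl and without the replicate 1 library at 25 DPI for the other 3. Inpp5d was not called by DESeq2 (adjusted p = 0.0736) or limma-voom (adjusted p = 0.0933). Dock2 was not called by either tool (adjusted p = 0.0621 and 0.131), without the filter on low counts (0.0592) or with TMM over the 4 iDKO libraries (0.0522). Csf1r, a receptor on which Langerhans cells and macrophages depend, was at 3.53 and 12.1 CPM and then at 41.9 and 27.6 CPM (log2 fold change 2.32, SE 0.59, adjusted p = 0.0191). Unlike most called genes, Csf1r was highest in the replicate 1 library at 52 DPI. Its change lay between 1.33 without the replicate 1 library at 25 DPI and 3.44 without the replicate 2 library at that time, and DESeq2 (adjusted p = 0.0638) and limma-voom (adjusted p = 0.0579) did not call it.

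Defining T cell genes leaned the same way without passing the test. Cd3e, a chain of the T cell receptor complex, was at 40.2 and 16.3 CPM at 25 DPI and at 75.2 and 99.5 CPM at 52 DPI (log2 fold change 1.76, adjusted p = 0.174), and Trdc, the constant region of the delta chain carried by resident epidermal T cells, had a log2 fold change of 1.68. Of 25 tested T cell genes, 21 were higher at 52 DPI, 2 were called (Prf1 and Itgae) and 16 had both 52 DPI libraries above both 25 DPI libraries, a pattern found for 11.8% of all autosomal genes tested. The median of the list was 1.39, made of 0.27 in the replicate 1 pair and 2.26 in the replicate 2 pair, and its summed level was 723 and 782 CPM at 25 DPI and 818 and 1307 CPM at 52 DPI. Without the replicate 2 library at 52 DPI the median was 0.04, with 13 members higher and 12 lower. The Langerhans cell list had 10 of 12 members higher, 1 called by edgeR (Csf1r) and 0 by DESeq2 or limma-voom, and a median of 1.02 with both pairs close together at 1.00 and 0.85. Its median lay between 0.58 and 1.70 when 1 iDKO library was left out. Cd207, which encodes langerin, was at 17.2 and 49.7 CPM and then at 65.1 and 68 CPM without being called (adjusted p = 0.84). In control epidermis the Langerhans cell list had a median of 0.75, with 8 of 12 members higher. That control median lay between -0.38 and 1.44 when 1 control library was left out. The median difference between the iDKO and the control change was 0.22, and 0 members had an unadjusted p under 0.05 for it by edgeR. In the iDKO libraries 11 of 16 macrophage and monocyte genes passed the filter, so their median of 1.64 describes those 11. A gene near 0 at 25 DPI can pass only through its 52 DPI libraries, which favours a positive median. The 1 called member was again Csf1r. The macrophage lysozyme gene Lyz2 was at 0.114 and 0.326 CPM and then at 0.878 and 4.57 CPM. In control the median was 0.05 over 8 tested members, 4 of them higher and 4 lower.

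In control epidermis the same interval gave 7 called genes of 15528 (0.0451%), all lower at 52 DPI, with 313 (2.02%) at an unadjusted p under 0.05, and 24 of the 25 T cell genes had a negative log2 fold change, with a median of -1.16. Without the replicate 1 control library at 25 DPI that median was -0.19, with 7 members higher and 18 lower. Of the called iDKO genes that could be tested in control, 39 of the 50 that rose and 19 of the 24 that fell had the same sign there, with median control changes of 0.71 and -1.81. The control log2 fold change was 2.54 for Tnc, 2.74 for Fscn1 and 1.94 for Csf1r, none of them called, and 0.03 for Prf1, -0.05 for Chil1, -0.13 for Sprr4 and -0.54 for Klk7. The difference between the iDKO and the control change was tested directly in all 8 libraries. It was called for 0 of 17258 autosomal genes (0.0%) by edgeR, with 362 (2.1%) at an unadjusted p under 0.05, and for 0 by DESeq2, with 558. Of the T cell list 19 of 25 members had an unadjusted p under 0.05 for this difference, with a median difference of 2.75 on the log2 scale, and all missed the adjusted threshold. Cxcr6, a chemokine receptor of tissue-resident T cells, was at 15.8 and 4.1 CPM and then at 32.1 and 24.7 CPM in iDKO, and at 111 and 6.62 CPM and then at 21.9 and 4.15 CPM in control, so that 1 control library at 25 DPI was the highest of the 8 (difference 3.85, unadjusted p = 0.00899). Leaving out that control library lowered the median difference of the list to 1.74 with 3 members at an unadjusted p under 0.05, leaving out the replicate 2 iDKO library at 52 DPI lowered it to 1.43 with 1 member, and leaving out either iDKO library at 25 DPI left 5 members.

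**Figure D4:**
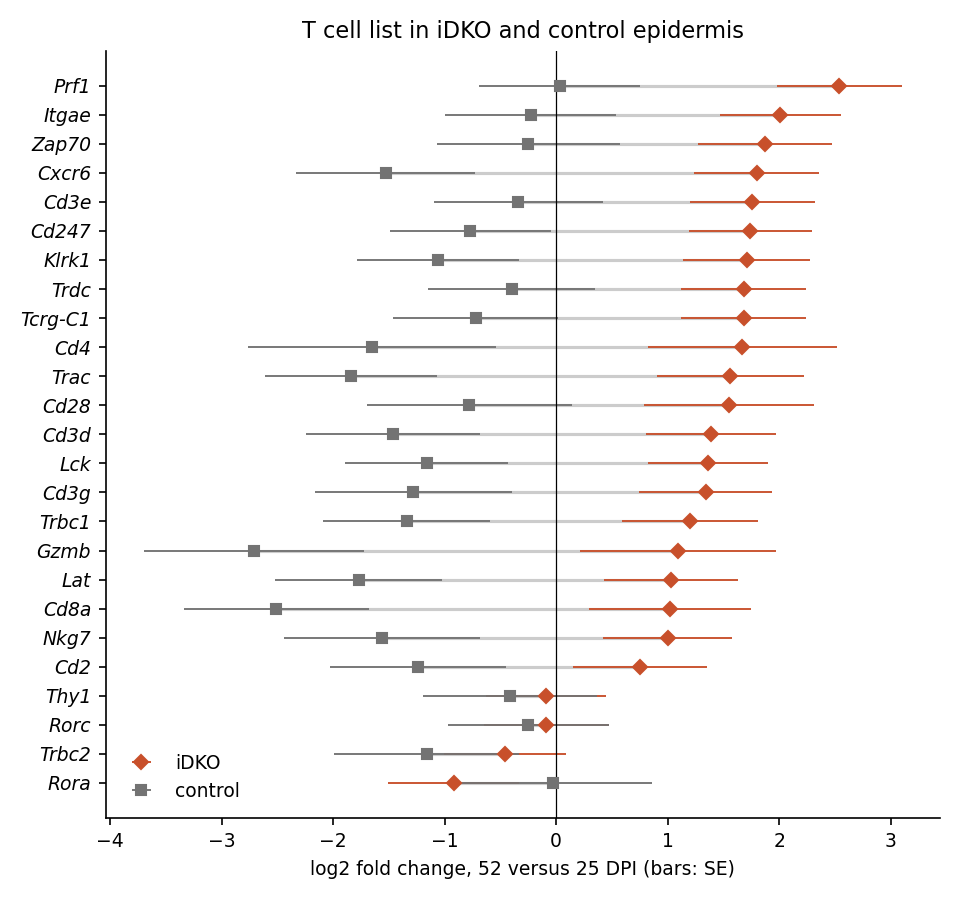
Log2 fold change from 25 to 52 DPI (horizontal axis, bars show 1 SE) of the 25 tested T cell genes in iDKO (red diamonds) and control epidermis (grey squares). In iDKO 21 of the genes lie above 0, and in control 24 lie below it, or 18 without the replicate 1 control library at 25 DPI.

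Among soluble mediators of inflammation no cytokine or chemokine gene was called. Among 23 tested cytokine genes 11 were higher, 12 lower and none called, with a median of -0.04, and among 15 chemokine genes 7 were higher, 8 lower and none called. Il6 was at 8.09 and 6.24 CPM and then at 6.09 and 1.7 CPM, and the keratinocyte alarm cytokine Tslp was at 7.63 and 5.08 CPM and then at 3.8 and 1.83 CPM (adjusted p = 1.0 for each). The neutrophil attractant Cxcl1 was at 10.1 and 8.34 CPM and later at 9.44 and 1.11 CPM. Il17a stayed below 3 CPM in every library (0.342, 0.399, 0.941 and 2.61, adjusted p = 0.966). S100a8, an alarmin of stressed keratinocytes and neutrophils, was at 0.684 and 0.58 CPM and then at 4.17 and 2.09 CPM, with no overlap between times, and was not called (adjusted p = 0.633). Chil1 was the 1 called gene of 13 tested alarmin and antimicrobial genes.

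The pairs disagreed for interferon and antigen presentation genes. The type I interferon list had a median of 0.30 over 25 tested genes, with 0.87 in the replicate 1 pair and -0.49 in the replicate 2 pair, and the antigen presentation list had 0.23 over 25 genes, with 0.84 and -0.34. Neither held a called gene. Gbp4, an interferon-induced GTPase, came closest, at 2.62 and 5.47 CPM and then at 18.2 and 16.6 CPM (log2 fold change 2.17, adjusted p = 0.0824). The class II gene H2-Ab1 was at 131 and 94 CPM and then at 299 and 174 CPM, which do not overlap but were not called (adjusted p = 1.0). Feedback genes of NF-kB and AP-1 had 18 of 23 members lower with none called and a median of -0.41, and the inhibitor Nfkbia was at 2363 and 1121 CPM and then at 949 and 496 CPM. In control this list had a median of 0.72. Without the replicate 2 library at 52 DPI its iDKO median was -0.01.

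Genes of the growing hair follicle were among the largest changes, and these rested mostly on 1 library. Krt71, a keratin of the inner root sheath (GRCm38 chr15:101733949-101743109), was at 0 and 0.217 CPM at 25 DPI and at 0.878 and 81.2 CPM at 52 DPI (log2 fold change 8.49, SE 1.00, adjusted p = 7.48e-14). Further inner root sheath keratins had the same profile but did not pass the filter, their counts being low in all libraries but 1: Krt25 was at 0.114, 0.254, 0.0314 and 59.3 CPM in the order of 25 DPI and then 52 DPI replicates, and Krt73 at 0, 0, 0.157 and 10.3 CPM. Krt28 was at 3.42, 0.0725, 0.314 and 42.3 CPM, with reads in the replicate 1 library at 25 DPI too, and was not called (adjusted p = 1.0). The replicate 2 library at 52 DPI held 13 genes at 10 CPM or more that were at 1 CPM or less in the other 3 iDKO libraries, against 5, 6 and 0 such genes for those 3, and the 13 included Krt71, Krt25, Krt73, the hair shaft keratin Krt35 and Padi3, an enzyme that modifies trichohyalin in the root sheath.

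The 250 bases before the RefSeq start of 3 of these keratin genes are shown because their transcripts appeared together in 1 library. They are from RefSeq (GRCm38.p6), 5′ to 3′ on the gene's minus strand, at chr15:101743098-101743347, chr11:99322952-99323201 and chr11:99374904-99375153. The RefSeq start of Krt71 lies 12 bases inside the gene as GENCODE gives it above, and those of Krt25 and Krt28 are the same in both. Capitals mark the TATA box letters TATAAA.
Krt71 promoter: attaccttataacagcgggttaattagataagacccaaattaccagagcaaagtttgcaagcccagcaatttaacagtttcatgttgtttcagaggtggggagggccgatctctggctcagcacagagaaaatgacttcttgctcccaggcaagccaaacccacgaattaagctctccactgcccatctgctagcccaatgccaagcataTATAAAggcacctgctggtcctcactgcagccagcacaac
Krt25 promoter: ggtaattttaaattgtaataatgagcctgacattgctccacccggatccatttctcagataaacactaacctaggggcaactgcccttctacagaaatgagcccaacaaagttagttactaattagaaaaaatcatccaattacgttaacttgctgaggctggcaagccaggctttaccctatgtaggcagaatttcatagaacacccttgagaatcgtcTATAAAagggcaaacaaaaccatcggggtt
Krt28 promoter: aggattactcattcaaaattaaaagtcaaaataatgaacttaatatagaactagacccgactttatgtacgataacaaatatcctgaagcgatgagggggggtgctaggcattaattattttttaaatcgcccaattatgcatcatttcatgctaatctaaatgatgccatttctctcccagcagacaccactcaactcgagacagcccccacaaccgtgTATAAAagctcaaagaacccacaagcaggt
On the gene's strand TATAAA began 40 bases before the RefSeq start of Krt71, which is 28 before its GENCODE start, and 30 before those of Krt25 and Krt28. It was also found in the promoters of Krt27 and Krt73. All 5 matches lay in the 50 bases next to the RefSeq start, where 863 of the 32851 promoters in the table (2.63%) hold these letters on the gene's strand, and in the whole 250 bases 12.4% hold them on either strand. A match is a description of the letters and not a measured site.

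**Figure D5:**
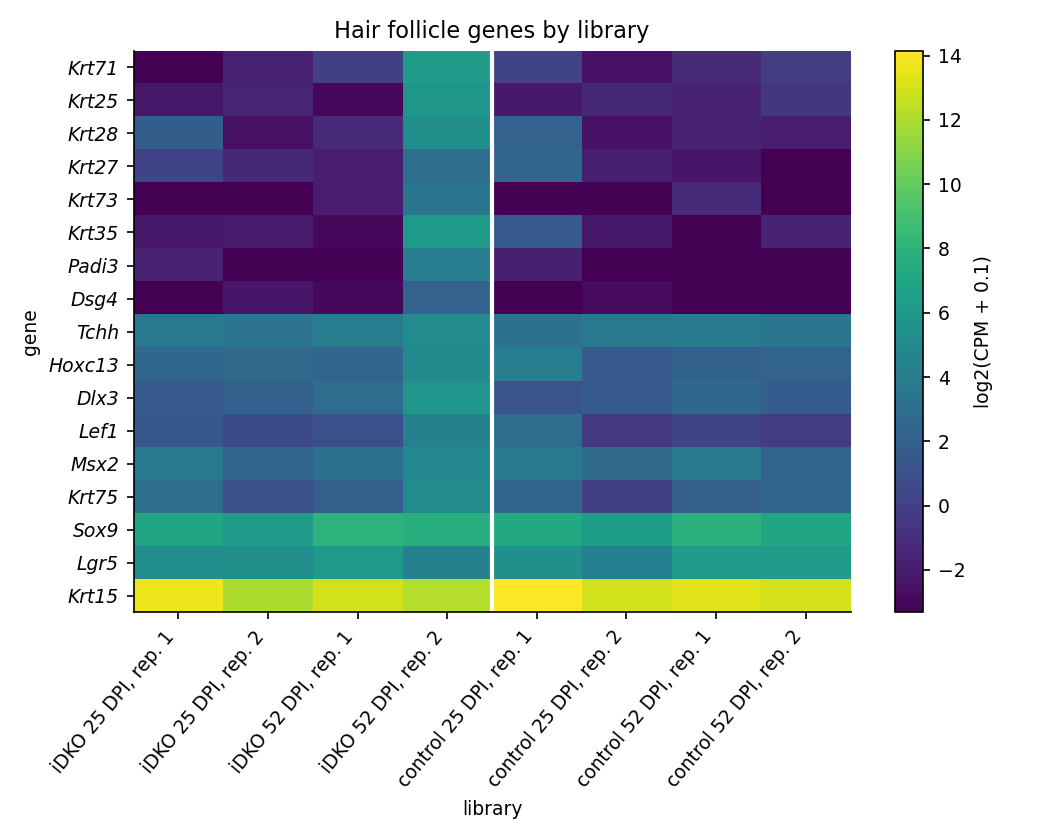
Levels of hair follicle genes as log2(CPM + 0.1) in the 4 iDKO libraries (left) and the 4 control libraries (right), 1 column per library. Inner root sheath and hair shaft genes from Krt71 to Dsg4 are highest in the replicate 2 iDKO library at 52 DPI, where Krt71 reached 81.2 CPM, while Sox9, Lgr5 and Krt15 were detected in all 8.

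Dlx3, a homeobox factor of hair matrix and root sheath, was at 2.96 and 3.99 CPM at 25 DPI and at 7.47 and 54.9 CPM at 52 DPI (log2 fold change 2.62, SE 0.62, adjusted p = 0.00984). Without the replicate 2 library at 52 DPI the change of Dlx3 was 1.11 (unadjusted p = 0.206). It was the 1 called gene of 44 tested hair signal and matrix genes, 22 of which were higher and 22 lower. Lef1, a partner of beta-catenin in hair matrix, was at 2.62 and 1.41 CPM and then at 1.85 and 19.7 CPM, and Hoxc13, which drives hair keratin genes, at 5.81 and 6.49 CPM and then at 4.99 and 33.2 CPM. Neither was called, and without the replicate 2 library at 52 DPI both had a lower value at 52 DPI (log2 fold changes of -0.95 and -0.73). Of the hair shaft and inner root sheath list only 14 of 27 genes passed the filter, so its median of 0.80 describes those 14, and it was -0.38 in the replicate 1 pair and 1.78 in the replicate 2 pair. Follicle stem cell and outer root sheath genes had a median of 0.07 with none of 27 called, and Sox9, a factor of that compartment, was at 128 and 80.9 CPM and then at 248 and 213 CPM (adjusted p = 0.902).

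Several called genes outside the lists were likewise highest in the replicate 2 library at 52 DPI, by differing margins. Lrat, which stores retinol as esters, had 0 and 2 counts at 25 DPI and 32 and 1270 counts at 52 DPI, or 1.00 and 83 CPM at the later time, and was called (adjusted p = 4.86e-16). Cmah, which makes a sialic acid, was at 1.03 and 2.28 CPM and then at 3.61 and 134 CPM (log2 fold change 4.23, SE 0.72, adjusted p = 7.1e-06). Slc7a8, an amino acid transporter, was at 1.94 and 1.99 CPM and then at 9.54 and 57.3 CPM (log2 fold change 3.66, SE 0.65, adjusted p = 2.21e-05). Its change kept a size of 2.56 without the replicate 2 library at 52 DPI, whereas that of Cmah was 1.48 and that of Krt71 was 2.42. Pi15, a secreted peptidase inhibitor, was at 5.13 and 8.45 CPM and then at 12.9 and 215 CPM (log2 fold change 3.06, and 1.16 without that library). In control epidermis Krt71 was at 1.11 and 0.0793 CPM and then at 0.333 and 0.783 CPM. The difference between its iDKO and control change had an unadjusted p of 0.0285 by edgeR that did not pass adjustment.

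Lipid genes of the sebaceous gland were among those that fell. Scd3, a fatty acid desaturase of sebocytes (GRCm38 chr19:44203269-44244016), was at 78.8 and 6.16 CPM at 25 DPI and at 4.17 and 0.784 CPM at 52 DPI (log2 fold change -3.69, SE 0.62, adjusted p = 4.81e-06). Elovl3, an elongase of very long fatty acids, was at 21.8 and 3.73 CPM and then at 1.66 and 0.196 CPM (log2 fold change -3.89, SE 0.77, adjusted p = 0.000522). The decrease of Elovl3 was alike in the pairs, -3.64 and -3.77, although its replicates at 25 DPI differed widely. Cidea, a protein of lipid droplets, was at 49 and 6.49 CPM and then at 2.45 and 2.74 CPM (log2 fold change -2.82, SE 0.65, adjusted p = 0.00793). Far2, which makes the fatty alcohols of wax esters, was at 101 and 16.8 CPM and then at 12.4 and 4.97 CPM (log2 fold change -2.41, SE 0.56, adjusted p = 0.00821). For all of these genes both 52 DPI libraries were below both 25 DPI libraries. That also held for 15 of the 27 genes called lower, and for 7.99% of all autosomal genes tested. The genes were picked from those called lower, which favours this pattern.

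The sebaceous list held 4 called genes among 19 tested autosomal members, 13 of which were lower at 52 DPI. Its median was -0.35, with -1.11 in the replicate 1 pair and -0.32 in the replicate 2 pair, and it was -0.19 without the replicate 1 library at 25 DPI and -1.22 without the replicate 2 library at 52 DPI, with 14 and 15 members lower. The list summed to 2119 and 2008 CPM at 25 DPI and to 1185 and 2144 CPM at 52 DPI. That sum fell in the replicate 1 pair only. Pparg, a nuclear receptor of sebocyte maturation, had a log2 fold change of -2.07 and was not called (adjusted p = 0.436). In control epidermis the list had a median of -1.21 over the same interval, and 13 of 19 members were lower. That median was -0.16 without the replicate 1 control library at 25 DPI. In the fit of all 8 libraries 0 of the members had a change over time that differed between genotypes at an unadjusted p under 0.05. Without the replicate 1 library at 25 DPI the log2 fold change of Scd3 was -1.45, that of Far2 -1.40, that of Cidea -1.71 and that of Elovl3 -3.50, and that of Cidea was -1.51 without the replicate 1 library at 52 DPI.

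The other called genes that fell included enzymes and a secreted inhibitor. Ces1d, a carboxylesterase, was at 26.8 and 7.9 CPM and then at 4.36 and 0.719 CPM (log2 fold change -2.99, adjusted p = 0.00438), and its relative Ces4a was at 24.4 and 1.16 CPM and then at 1.63 and 0.131 CPM (log2 fold change -3.65, adjusted p = 0.00517). Ces4a at 25 DPI thus overlapped with its level at 52 DPI. Adh1, an alcohol dehydrogenase that also oxidises retinol, was at 25.1 and 4.79 CPM and then at 2.29 and 1.04 CPM (log2 fold change -2.86, adjusted p = 0.0136). Serpina3b, a serine protease inhibitor with many close copies, was at 63 and 5.95 CPM and then at 3.98 and 0.653 CPM (log2 fold change -3.64, adjusted p = 8.8e-06), and reads of those copies may be shared. Without the replicate 1 library at 25 DPI its log2 fold change was -0.84 and that of Ces4a was -1.58. Npy1r, a receptor of neuropeptide Y, was at 8.32 and 3.41 CPM and then at 0.126 and 0.784 CPM (log2 fold change -3.90, adjusted p = 0.0172), against 2.35 and 3.87 and then 2.92 and 4.93 CPM in control. The difference between the iDKO and the control change of Npy1r had an unadjusted p of 0.0107 by edgeR and was not called.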

How the data were processed

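RNA of mouse epidermis was measured in 8 libraries, grouped by the genotype and DPI in their labels, of which the 4 iDKO libraries are described. The authors deposited raw read counts, in a separate table for each library, and the unstranded column was used. The submitters' processing notes list STAR 2.5.2a, FastQC 0.11.9, DESeq2 1.24.0 and Trimmomatic 0.35, and the builds mm10 and GRCm38. The annotation release was not given in the sources used here. Per the labels' protocols, Trizol served for RNA isolation and a low-input SMART-seq kit from Clontech for the libraries. Gene symbols and coordinates came from GENCODE for GRCm38, matched by identifier for 54809 genes. In the replicate 1 libraries reads of overlapping genes on opposite strands could not be told apart.

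The main test was the quasi-likelihood test of edgeR 4.0.16 in R 4.3.3, with filterByExpr on the iDKO groups, TMM scaling over all 8 libraries and the replicate number as a block, which left 1 residual degree of freedom. Benjamini-Hochberg adjustment ran over 16429 genes, with 0.05 as the threshold for a call. Standard errors are those implied by the test statistic, and CPM are counts scaled by library size and TMM. The difference between genotypes is that between their changes over time. It was an interaction contrast on 8 libraries with 3 residual degrees of freedom, and levels of iDKO and control were not tested against each other. The labels number the replicates, and these numbers were treated as pairs because the comparison was defined with them as a block. Deviations of libraries from their group means correlated at 0.395 to 0.793 over 17839 genes in all 6 pairs of groups (0.502 for the iDKO groups). The strand of reads split the replicates in the same way in every group, so these correlations do not show that libraries were paired. The labels call the replicates biological. In the main test the p values rest on the trend of spread across genes. They do not measure each gene's own spread between these libraries. Library totals were 9824307 to 28783756 counts in the 4 iDKO libraries and 13024905 to 50711381 in the 4 control libraries.

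Lists are described by counts and medians over their tested autosomal members, with no test. The lists, genes and comparisons were chosen with earlier results of these data known. Genes given with values are those named by role, the 5 smallest p values within each list, the 15 called genes of largest change in each direction, provided that their log2 CPM averaged 2 or more and both pairs moved the same way, and up to 10 in each direction by the difference between genotypes, and a few members of the lists beyond these were chosen after their values were seen. Alternatives were fits without the block, on all 8 libraries, with DESeq2 1.42.0 and limma-voom (limma 3.58.1), other scaling and filters, the second-strand column and each library left out.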

Additional observations from a re-analysis of the deposited data

How the results depend on the processing

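The 80 calls of the iDKO comparison with the replicate block became 0 in the fit without the block, 0 with the block on all 8 libraries and 0 with a block within each genotype on all 8 libraries. Under those 3 fits all 80 genes kept their direction, and 68, 75 and 75 of them had an unadjusted p under 0.05. The 80 genes were chosen by their change in the same iDKO libraries, so neither result is independent support. Leaving out 1 iDKO library at a time gave 0 to 4 calls, and without the replicate 1 library at 25 DPI 25 of the 80 had an unadjusted p under 0.05. With the block, DESeq2, limma-voom, RLE scaling, no filter on low counts, autosomal genes only, TMM over the iDKO libraries and the second-strand column gave 71 to 90 calls. The 7 calls in control became 0 without the block and 0 with any control library left out. The difference between the iDKO and the control change had 0 calls in every fit of all 8 libraries. In leave-one-out fits the sign turned for some genes that were not called. Tnfaip3 (-0.12) ranged from -0.76 without the replicate 1 library at 52 DPI to 0.56 without the replicate 2 library at 25 DPI, and Ovol1 (-0.33) from -0.82 to 0.13. The ranges were -1.57 to 4.59 for Dcn, -0.95 to 4.14 for Lef1, -3.11 to 8.50 for Krt28 and -0.73 to 2.72 for Hoxc13, each lowest without the replicate 2 library at 52 DPI. The cause was not tested. Fits with 1 library left out used the other 7 libraries, and assume that the lone library of its group varies like the others. Changes under about 2 on the log2 scale were not called with 2 libraries a group.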

Other observations

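Proliferation and metabolism genes gave no calls in iDKO epidermis between the times. Of 44 tested cell cycle genes 31 were higher at 52 DPI with a median of 0.19, and the mitotic checkpoint kinase gene Bub1b was at 13.6 and 21.4 CPM and then at 35.8 and 28.4 CPM, which do not overlap. Oxidative phosphorylation genes had 24 of 28 lower with a median of -0.32, but the pairs were -1.08 and 0.26, and in control all 28 were lower. Circadian clock genes had a median of 0.09, with 0.60 and -0.48 in the pairs. Heat shock and immediate-early genes that respond to cell isolation had a fitted value below 0 for all 18 tested, with a median of -0.45 and no call, although 6 of them were higher at 52 DPI in the replicate 1 pair and 2 in the replicate 2 pair, and Hsp90aa1, a stress-responsive chaperone, was at 610 and 1052 CPM and then at 335 and 378 CPM. Their part in the other results was not tested.

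Of the 21 tested mesenchymal transition genes 0 were called. Melanocyte genes had 6 of 9 lower with a median of -0.39, and Kit, shared by melanocytes and mast cells, was at 3.65 and 6.45 CPM and then at 8.97 and 28.8 CPM (adjusted p = 0.267). Of the 27 called genes that fell, 7 are not protein coding. Among them Gm24187, annotated as a miRNA gene, was at 787 and 33.3 CPM and then at 256 and 3.27 CPM, and Rn7sk at 146 and 3.37 CPM and then at 19.9 and 0.719 CPM, so both were higher in replicate 1 at each time. Gm26530 was at 534 CPM in the replicate 1 iDKO library at 25 DPI and at 170 CPM in the replicate 1 control library at 25 DPI, and below 1 CPM in the other 6 libraries.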
